A study of Mus musculus with 8 samples.

Results

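The genes for subunits of RNA polymerases I, II and III were taken as every line of the count table whose gene symbol begins with Polr1, Polr2 or Polr3 followed by a letter. This gave 29 of 45706 lines, with 5 Polr1, 14 Polr2 and 10 Polr3 symbols, and 28 of the 29 passed the filter on low counts. The line that did not pass was the pseudogene Polr2k-ps, which held 4 rounded counts in fresh replicate 3 and 0 in the other libraries. Polr2m, taken as a regulator of polymerase II, is counted among the subunit genes here but left out of the sums by polymerase. Expression was measured by RNA-seq in 8 libraries of wild-type muscle stem cells, which repair skeletal muscle, taken from the hindlimbs of female C57BL/6 mice aged 8 to 12 weeks. Cells in all libraries were sorted as positive for α7-integrin and CD34 and negative for CD45, CD11b, Sca1 and CD31. The 3 cultured libraries came from cells kept for 48 h on a hydrogel with a stiffness of 12 kPa, and the 5 fresh libraries came from cells taken directly after sorting. The cultured libraries and fresh replicates 4 and 5 were sequenced together (run 2), and fresh replicates 1 to 3 on their own (run 1). The medium listed held 20% fetal bovine serum, 40% F-10 and 40% of a medium low in glucose. No label says that replicates are different animals or dishes, so p-values measure only how these samples vary, and that variation may be technical.

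RNA polymerase I transcribes the large ribosomal RNA precursor, RNA polymerase II transcribes messenger RNAs and many small nuclear RNAs, and RNA polymerase III transcribes transfer RNAs, 5S ribosomal RNA and other short RNAs. Each enzyme is a complex built around a catalytic core of its own largest and second largest subunits, to which smaller subunits are added, some used by a single polymerase and some shared. Muscle stem cells are quiescent in resting muscle and enter the cell cycle after isolation and culture, a step that is known to come with greater cell size and RNA content.

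Library totals were between 16654628 and 20068199 counts in cultured cells and between 13919508 and 20055228 in fresh cells. Polymerase subunit lines took 2038 to 2229 CPM of the total in cultured libraries and 488 to 952 CPM in fresh libraries (CPM are counts scaled to a fixed library total). Levels below are CPM of the library size after TMM scaling, so a rise or fall is relative and does not measure an amount per cell. The table is of sorted cell populations, so fewer cells of a type and less RNA per cell cannot be told apart. Summed levels of the 10 muscle stem cell markers were 1060 to 1177 CPM in cultured libraries and 4636 to 6033 CPM in fresh libraries. Marker sums of 5 of the 6 other cell types were lower in every cultured than in every fresh library. The 12 pericyte and smooth muscle markers summed to 211 to 251 CPM in cultured and 1299 to 3768 CPM in fresh libraries, with Kcnj8 and Abcc9 at 0 in culture. The 9 Schwann cell markers summed to 17.6 to 35.5 CPM in cultured and 480 to 2161 CPM in fresh libraries, with Sox10, S100b and Cdh19 at 0 in culture. The 10 fibroblast markers summed to 24.8 to 35.9 CPM in cultured and 1070 to 1648 CPM in fresh libraries, with Ly6a, Pi16 and Cd248 at 0 in culture. The 10 endothelial markers summed to 0.772 to 41.3 CPM in cultured and 94.5 to 139 CPM in fresh libraries, with Kdr, Tie1, Cldn5 and Egfl7 at 0 in culture. Among them Pecam1 had the higher mean in culture, at 24.4 ± 21.1 CPM in cultured and 2.51 ± 1.95 CPM in fresh libraries (SD). Its groups overlapped. The 10 blood cell markers summed to 0.255 to 5.92 CPM in cultured and 27.1 to 75.3 CPM in fresh libraries, with 6 of them at 0 in culture. The 10 myofibre markers summed to 19.5 to 79.3 CPM in cultured and 38.1 to 45.6 CPM in fresh libraries, which overlapped, with Myh2 at 0 in culture. Mitochondrial ribosomal RNA took 11.1 to 18.4% of counts in cultured libraries, against 23.2 and 26.5% in fresh libraries of run 2 and 5.25 to 10.5% in those of run 1. Genes with a count numbered 15415 to 17852 in cultured libraries, against 20480 and 20898 in fresh libraries of run 2 and 32710 to 34689 in those of run 1. The part of these cells and library measures in the subunit results was not tested.

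Subunit genes of all 3 polymerases rose in culture, and a single subunit gene, Polr3gl, fell. By edgeR's quasi-likelihood test with sequencing run as a term and Benjamini-Hochberg adjustment at 0.05, 13 of the 28 tested subunit genes rose, 1 fell and 14 did not pass. Of all 19054 genes tested, 26.9% were called in either direction, 8.87% as higher and 18.0% as lower. The fold change was above 0 for 25 of the 28 subunit genes, and the median log2 fold change was 1.66 over them and -0.21 over all genes. The cultured libraries all lay above the fresh libraries for 17 subunit genes and all below for 2, while 9 overlapped. Over all genes those arrangements held for 13.7% and 26.1%. Because run 1 held fresh libraries alone, the fold change sets the cultured libraries against fresh replicates 4 and 5, while fresh replicates 1 to 3 enter through the estimated spread. The count of subunit genes called higher fell to 4 without fresh replicate 4 and to 6 without fresh replicate 5. Over all genes it also fell, from 1691 of 19054 to 908 of 18777 and 896 of 18677. With the libraries of run 2 alone, 10 subunit genes were called higher, against 1013 of all 16241 genes. In that setting 0 subunit genes were called lower by the same test, with 1 at an unadjusted p under 0.05 (DESeq2, run on all libraries, called 2).

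**Figure D1:**
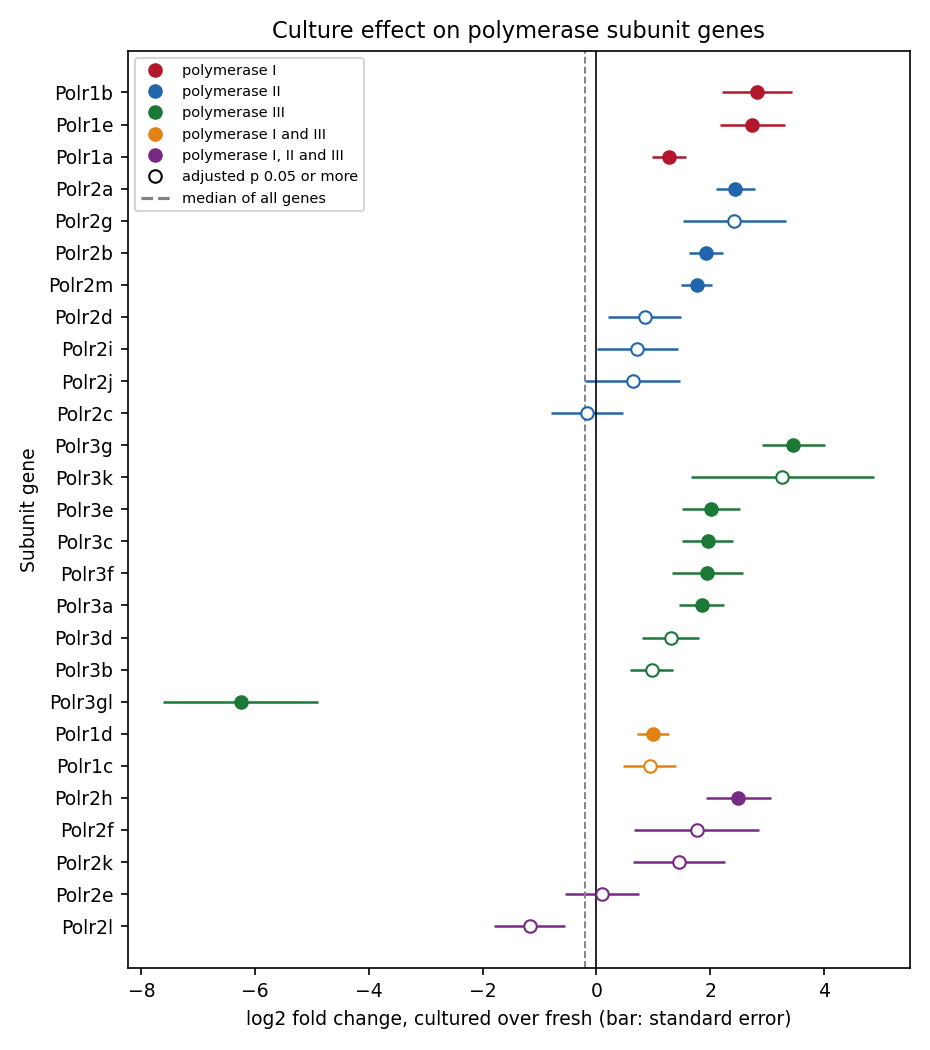
Log2 fold change of 27 of the 28 tested subunit genes, cultured over fresh, on the horizontal axis, with bars for the standard error and colours for the polymerase a subunit belongs to. Filled points passed the test at an adjusted p of 0.05, and the dashed line is the median over all genes, -0.21. Polr3gl, at -6.25, stands apart from the other genes plotted, which lie between -1.18 and 3.46.

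All 3 Polr1 genes specific to polymerase I rose in culture. Polr1a, which codes the largest subunit, was at 152, 182 and 157 CPM in cultured replicates 1 to 3 and at 130, 91.1, 73.0, 64.2 and 70.4 CPM in fresh replicates 1 to 5. Every cultured library lay above every fresh library, with fresh replicate 1 nearest. The log2 fold change was 1.28 ± 0.30 (SE; adjusted p = 0.0134, edgeR quasi-likelihood test with Benjamini-Hochberg adjustment, as for all adjusted p-values here). Polr1b, for the second largest subunit, was at 98.5, 75.2 and 40.0 CPM in cultured replicates 1 to 3 and at 20.3, 12.4, 11.4, 5.50 and 14.7 CPM in fresh replicates 1 to 5. The groups did not overlap, although the cultured libraries spanned a wide range and cultured replicate 3 was lowest. Its log2 fold change was 2.82 ± 0.62 (adjusted p = 0.0108). Polr1e, for a subunit of the module that helps polymerase I initiate, was at 48.2, 35.4 and 30.3 CPM in cultured replicates 1 to 3 and at 10.2, 8.35, 5.46, 4.42 and 6.91 CPM in fresh replicates 1 to 5. Its groups were also separate, with a log2 fold change of 2.74 ± 0.56 (adjusted p = 0.00809). Polr1a did not pass with run-1 libraries as the sole fresh group (adjusted p = 0.0503), without fresh replicate 4 (0.0853) or without fresh replicate 5 (0.0695). Polr1b and Polr1e did not pass without fresh replicate 4 (adjusted p = 0.0638 and 0.0572), and the log2 fold change of Polr1b was 3.70 without fresh replicate 5.

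Polr1c and Polr1d code a pair of assembly subunits that polymerases I and III share. Polr1d was at 184, 122 and 142 CPM in cultured replicates 1 to 3 and at 94.7, 71.4, 69.8, 76.3 and 73.3 CPM in fresh replicates 1 to 5. The groups were separate, and the log2 fold change of 1.00 ± 0.28 passed the test (adjusted p = 0.0299). Polr1c was at 51.3, 67.9 and 104 CPM in cultured replicates 1 to 3 and at 84.5, 44.5, 35.3, 42.2 and 35.6 CPM in fresh replicates 1 to 5. Here fresh replicate 1 lay above cultured replicates 1 and 2, and the log2 fold change of 0.93 ± 0.46 did not pass (adjusted p = 0.167). The call of Polr1d was lost with run 2 alone (adjusted p = 0.0755), without the low count filter (0.0648), with GC and length trends removed (0.101), and without fresh replicate 2 (0.0534), 4 (0.104) or 5 (0.133).

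Of the 13 tested Polr2 genes, 4 rose and 9 did not pass. Polr2a codes the largest subunit of polymerase II, whose C-terminal domain is phosphorylated during transcription. It was at 584, 397 and 347 CPM in cultured replicates 1 to 3 and at 163, 140, 106, 95.1 and 67.9 CPM in fresh replicates 1 to 5. The lowest cultured library was well above the highest fresh library, and the log2 fold change was 2.44 ± 0.34 (adjusted p = 0.00167). Polr2b, for the second largest subunit, was at 129, 113 and 134 CPM in cultured replicates 1 to 3 and at 51.6, 46.7, 46.8, 40.6 and 25.7 CPM in fresh replicates 1 to 5. Both groups were narrow except for the lower fresh replicate 5, and the log2 fold change was 1.92 ± 0.30 (adjusted p = 0.00290). Polr2m codes a protein that binds polymerase II and blocks its response to some initiation factors unless Mediator is present. It was at 292, 213 and 347 CPM in cultured replicates 1 to 3 and at 70.8, 67.1, 62.1, 84.3 and 83.2 CPM in fresh replicates 1 to 5. The groups were separate, and the log2 fold change was 1.76 ± 0.27 (adjusted p = 0.00268). Polr2a, Polr2b and Polr2m kept their calls in all 21 alternatives tried.

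Apart from Polr2a and Polr2b, the genes specific to polymerase II did not pass. Polr2g, for a stalk subunit, was at 12.4, 15.4 and 64.0 CPM in cultured replicates 1 to 3 and at 2.87 to 10.02 CPM in fresh libraries. Cultured replicate 3 stood far above the others, and the log2 fold change was 2.42 ± 0.90 (adjusted p = 0.0781), or 1.30 without that library and 3.47 without fresh replicate 4. It passed without cultured replicate 1 (2.86, adjusted p = 0.0235), without the run term (0.0274), without scaling factors (0.0492) and with DESeq2 (0.0280). Polr2d, the other stalk subunit gene, had a log2 fold change of 0.85 ± 0.65, Polr2i, a subunit gene for the edge of the catalytic core, 0.72 ± 0.71, and Polr2j, an assembly subunit gene, 0.63 ± 0.84. Polr2c, the partner of Polr2j in assembly, had -0.17 ± 0.63, with an approximate 95% interval from -1.79 to 1.45, so that neither a rise nor a fall of that size was detectable. Its sign turned in 6 alternatives. Reads of Polr2c, Polr2h and Polr2k are uncertain, because over at least 30% of the transcript another gene has a copy at 95% identity or more. Those of Polr2i are uncertain too, because 325 bases of its exons overlap an exon of Tbcb on the opposite strand.

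Polr2e, Polr2f, Polr2h, Polr2k and Polr2l code the subunits common to all 3 polymerases. Polr2h rose, at 60.5, 37.3 and 76.0 CPM in cultured replicates 1 to 3, against 25.0, 15.2, 9.30, 8.09 and 12.4 CPM in fresh replicates 1 to 5. The groups were separate, and the log2 fold change was 2.50 ± 0.58 (adjusted p = 0.0131), which was lost without fresh replicate 4 (adjusted p = 0.0931) or 5 (0.0523). Polr2k was at 14.7, 16.3 and 12.6 CPM in cultured replicates 1 to 3 and at 3.48, 0.87, 1.80, 4.42 and 6.25 CPM in fresh replicates 1 to 5. These groups were also separate, but the log2 fold change of 1.45 ± 0.81 did not pass (adjusted p = 0.220). It passed without the run term (2.11, adjusted p = 0.0316) and with run-1 libraries as the sole fresh group (2.89, 0.0207). Polr2l had the opposite arrangement, at 4.64, 3.91 and 4.84 CPM in cultured replicates 1 to 3 and at 11.6, 8.88, 15.2, 12.4 and 7.82 CPM in fresh replicates 1 to 5. Its log2 fold change of -1.18 ± 0.63 did not pass (adjusted p = 0.203), although DESeq2 called it lower (adjusted p = 0.0331). Polr2e and Polr2f overlapped between groups, with log2 fold changes of 0.10 ± 0.65 and 1.76 ± 1.10. That of Polr2f was 2.65 without fresh replicate 4 and 1.04 without cultured replicate 2.

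Of the 10 Polr3 genes, 5 rose, 1 fell and 4 did not pass. Polr3a, for the largest subunit, was at 58.8, 94.6 and 48.7 CPM in cultured replicates 1 to 3 and at 29.8, 28.8, 24.3, 19.6 and 17.7 CPM in fresh replicates 1 to 5. The groups were separate, and the log2 fold change was 1.85 ± 0.40 (adjusted p = 0.00956). Polr3b, for the second largest subunit, was at 77.4, 41.7 and 51.1 CPM in cultured replicates 1 to 3 and at 31.6, 26.7, 23.4, 31.3 and 26.6 CPM in fresh replicates 1 to 5. Every cultured library was above every fresh library here too, but the log2 fold change of 0.97 ± 0.38 did not pass (adjusted p = 0.0924). It passed without the run term (adjusted p = 0.0250), against the run-1 fresh libraries alone (0.0328) and without scaling factors (0.0240).

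Polr3c, Polr3f and Polr3g or Polr3gl code the subcomplex with which polymerase III is recruited to promoters. Polr3c was at 44.4, 60.7 and 45.4 CPM in cultured replicates 1 to 3 and at 19.3, 12.7, 10.6, 13.8 and 12.1 CPM in fresh replicates 1 to 5. The groups were separate, with a log2 fold change of 1.95 ± 0.45 (adjusted p = 0.0126). Polr3f was at 125, 40.5 and 52.7 CPM in cultured replicates 1 to 3 and at 10.4, 17.5, 17.8, 11.0 and 26.7 CPM in fresh replicates 1 to 5. Cultured replicate 1 stood above the rest, and the log2 fold change of 1.95 ± 0.63 was only just past the threshold (adjusted p = 0.0491). Leaving out any single library except cultured replicates 2 and 3 ended that call (adjusted p = 0.0599 to 0.235), as did RLE scaling (0.0549) and run 2 alone (0.120), and the log2 fold change was 2.72 without fresh replicate 5 and 1.37 without cultured replicate 1. Polr3e, which with Polr3d forms an initiation and termination module, was at 67.9, 34.8 and 33.7 CPM in cultured replicates 1 to 3 and at 13.8, 9.02, 9.78, 11.4 and 11.1 CPM in fresh replicates 1 to 5. The groups were separate, with a log2 fold change of 2.01 ± 0.51 (adjusted p = 0.0192). Without fresh replicates 4 or 5 the calls of Polr3a (adjusted p = 0.0514 and 0.0672), Polr3c (0.0615 and 0.0824) and Polr3e (0.0886 and 0.0984) were lost, and that of Polr3e also with run 2 alone (0.0632).

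Polr3d and Polr3k did not pass. Polr3d was at 26.2, 30.8 and 39.4 CPM in cultured replicates 1 to 3 and at 8.21 to 17.9 CPM in fresh libraries, separate groups with a log2 fold change of 1.30 ± 0.51 (adjusted p = 0.0880), or 1.98 without fresh replicate 5. It passed in 5 alternatives, namely without the run term, with run-1 libraries as the sole fresh group, without scaling factors, with DESeq2 and without cultured replicate 1 (adjusted p = 0.0303 to 0.0457). Polr3k, for a small subunit that acts in termination, held 3, 1050 and 380 rounded counts in cultured replicates 1 to 3 and 105, 108, 118, 37 and 42 in fresh replicates 1 to 5. Cultured replicate 1 was thus below every fresh library while the other cultured libraries were above all of them. The log2 fold change was 3.27 ± 1.61 (adjusted p = 0.168) with all libraries and 3.91 (adjusted p = 0.00222) without cultured replicate 1, and it was 2.00 (adjusted p = 0.378) without cultured replicate 2.

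**Figure D2:**
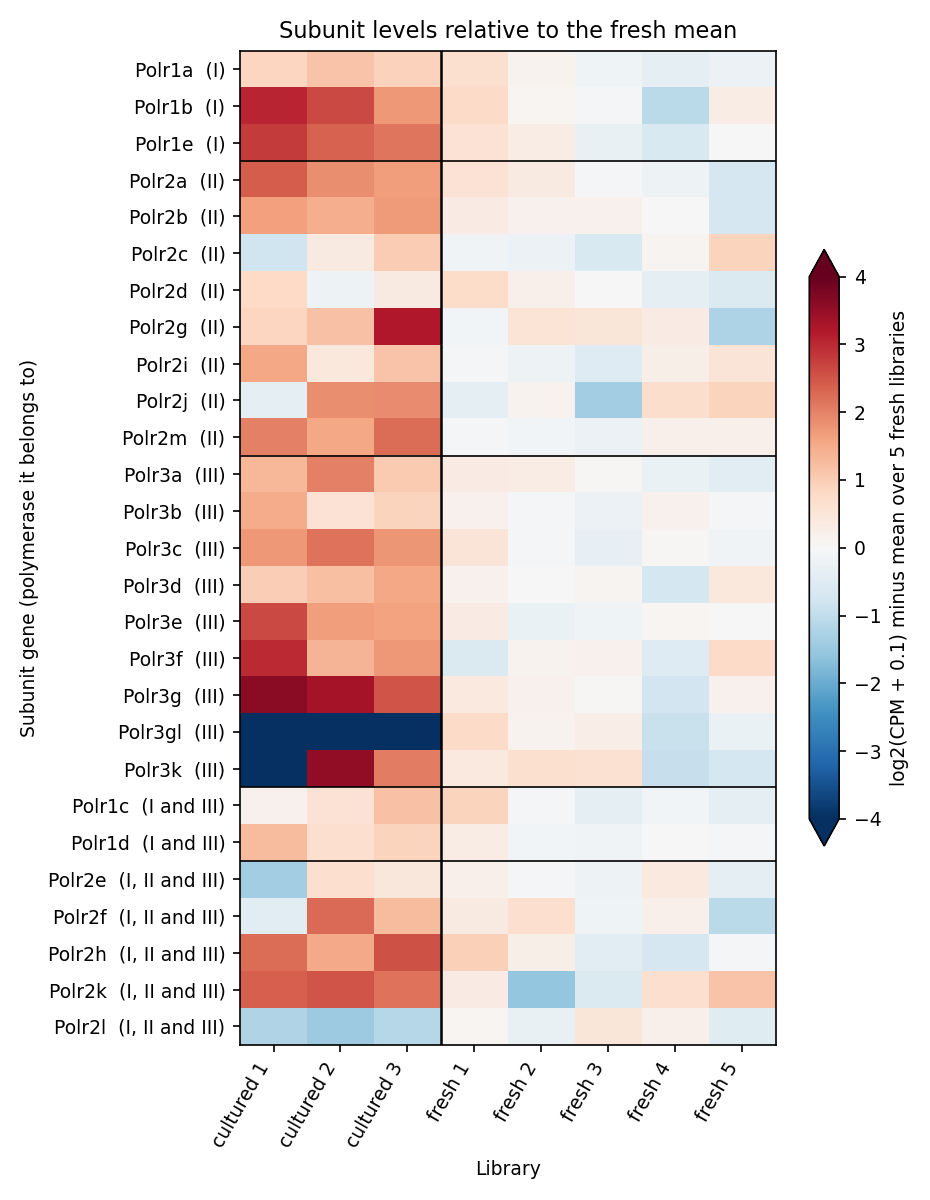
Level of 27 of the 28 tested subunit genes in each library as log2(CPM + 0.1) minus its mean over the 5 fresh libraries, with cultured libraries on the left and colours that end at -4 and 4. Polr3gl is dark blue in every cultured library and Polr3g dark to mid red, while Polr3k is dark blue in cultured replicate 1 and red in cultured replicates 2 and 3.

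Polr3g and Polr3gl code alternative forms of the same subunit, so that a polymerase III complex holds the product of either gene. In mouse and human, the form with Polr3g is known from stem, embryonic and tumour cells and the form with Polr3gl from differentiated tissues. Their promoter windows are shown because the pair moved in opposite directions. The sequences are from RefSeq on GRCm38.p6, 250 bases before to 50 bases after the annotated start, both genes being on the minus strand. Capitals mark matches to the searched motifs, in either orientation.
Polr3g, chr13:81710964-81711263: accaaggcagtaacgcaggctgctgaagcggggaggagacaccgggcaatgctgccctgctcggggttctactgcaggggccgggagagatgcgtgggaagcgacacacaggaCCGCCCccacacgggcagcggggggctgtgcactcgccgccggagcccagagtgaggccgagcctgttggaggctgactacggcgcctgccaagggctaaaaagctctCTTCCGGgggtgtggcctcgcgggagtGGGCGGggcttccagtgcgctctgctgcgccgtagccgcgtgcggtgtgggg
Polr3gl, chr3:96594132-96594431: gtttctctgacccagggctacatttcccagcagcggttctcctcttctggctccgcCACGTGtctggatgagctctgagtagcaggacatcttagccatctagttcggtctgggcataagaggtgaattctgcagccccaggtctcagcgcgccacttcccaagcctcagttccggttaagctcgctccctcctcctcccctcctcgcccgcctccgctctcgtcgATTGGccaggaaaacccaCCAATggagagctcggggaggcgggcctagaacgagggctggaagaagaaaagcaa

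The motifs searched on both strands were the E-box CACGTG, the ETS motif CCGGAAG, the GC box GGGCGG, the CCAAT box CCAAT and the TATA motif TATAAA. None of them holds another. The Polr3g window held 2 GC boxes and 1 ETS motif, and the Polr3gl window held 1 E-box and 2 CCAAT boxes. Of the 22 subunit genes with a promoter in the RefSeq table, 4 held an E-box (Polr2h, Polr3c, Polr3e and Polr3gl), 7 an ETS motif, 14 a GC box, 7 a CCAAT box and 2 a TATA motif. Among all 27025 genes in that table the shares were 8.09%, 9.93%, 38.2%, 41.1% and 15.7% in the same order of motifs. These matches describe the letters of the windows and no binding was measured.

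Polr3g (chromosome 13, 81673843 to 81711013) was at 78.8, 65.6 and 37.2 CPM in cultured replicates 1 to 3 and at 8.43, 7.21, 6.66, 3.73 and 7.23 CPM in fresh replicates 1 to 5. The lowest cultured library was far above the highest fresh library. The log2 fold change was 3.46 ± 0.56 (adjusted p = 0.00330), the highest among the subunit genes, and the call held in all 21 alternatives. Polr3gl (chromosome 3, 96577872 to 96594181) held 0, 0 and 2 rounded counts in cultured replicates 1 to 3 and 140, 76, 93, 39 and 59 in fresh replicates 1 to 5. The gene was thus nearly undetected in culture, where a count of 0 allows up to 0.158 CPM in cultured replicate 1 and 0.154 CPM in cultured replicate 2. In fresh cells it was at 7.98, 5.08, 5.58, 2.46 and 3.84 CPM in replicates 1 to 5. The fitted log2 fold change was -6.25 ± 1.36 (adjusted p = 0.0104), which depends on the prior count. With run 2 alone the adjusted p was 0.0618. In run 2, counts were summed over each group and divided by the summed scaled library sizes. By the ratio of these levels, Polr3gl was 91.2-fold lower in cultured than in fresh libraries, with a 95% counting interval from 24.6 to 764. Without cultured replicate 3, it was at least 40.2-fold lower in cultured libraries, against a floor of 3 counts over the group. Polr3gl lies 117 kb from Polr3c, which rose, on the same strand of chromosome 3.

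Per kilobase of transcript, Polr3g made up 100%, 100% and 99.4% of the pair in cultured replicates 1 to 3 and 33.1, 39.9, 35.8, 41.4 and 46.8% in fresh replicates 1 to 5. The means were 99.8 ± 0.337% in cultured and 39.4 ± 5.29% in fresh libraries (SD, n = 3 and 5). Both genes were thus detected in every fresh library, and nearly all of the pair in culture was Polr3g. The log2 ratio of Polr3g to Polr3gl per kilobase, with 0.5 counts added, was 9.88 higher in cultured than in fresh libraries (exact two-sided permutation test over samples, p = 0.0357, the smallest that 3 against 5 libraries can give). Within run 2 the difference was 9.60 (exact p = 0.2, the smallest possible with 3 against 2). The test over all libraries took no account of run. The pair was chosen with earlier results of these data known, and both genes were already called. These p-values therefore add no separate support. The summed level of the pair was 19.8 ± 6.93 CPM per kb in cultured and 5.67 ± 1.95 CPM per kb in fresh libraries.

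**Figure D3:**
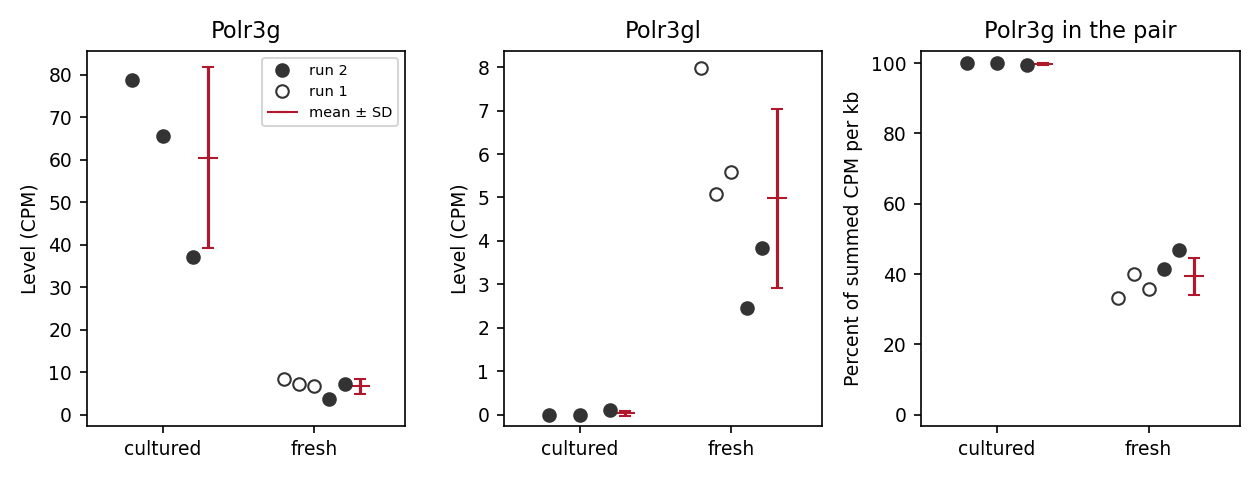
Level of Polr3g and of Polr3gl in CPM and the percent of their summed CPM per kb that is Polr3g, with 1 point per library, open for run 1 and filled for run 2, and mean ± SD in red. Cultured libraries lie at 99.4% or more of the pair, and fresh libraries between 33.1 and 46.8%.

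Summed over the Polr genes of each enzyme, levels per kilobase were higher in culture for all 3 polymerases. These sums leave out Polr2m, which was taken as a regulator of polymerase II, and the subunits that stand under other symbols. Genes specific to polymerase I summed to 48.3 ± 10.2 CPM per kb in cultured and 14.9 ± 4.81 CPM per kb in fresh libraries (SD, n = 3 and 5 here and below). Those specific to polymerase II summed to 190.3 ± 36.0 CPM per kb in cultured and 70.3 ± 7.65 CPM per kb in fresh libraries, and those specific to polymerase III to 125 ± 22.3 CPM per kb in cultured and 40.0 ± 5.83 CPM per kb in fresh libraries. The cultured and fresh ranges did not overlap for any of the 3. The pair shared by polymerases I and III summed to 181 ± 24.2 CPM per kb in cultured and 101 ± 23.9 CPM per kb in fresh libraries, and the common subunits to 116 ± 16.4 CPM per kb in cultured and 45.6 ± 8.78 CPM per kb in fresh libraries. Of the common subunits, Polr2h had cultured and fresh means of 61.0 and 14.7 CPM per kb and Polr2k of 29.8 and 6.88. Reads of both are uncertain, as said above. The means were 16.2 and 14.8 for Polr2e, 6.24 and 2.47 for Polr2f, and 2.70 and 6.77 for Polr2l. Among the specific subunits, the share of polymerase I was 13.3 ± 2.79% in cultured and 11.7 ± 2.29% in fresh libraries, that of polymerase II was 52.3 ± 9.02% in cultured and 56.4 ± 4.10% in fresh libraries, and that of polymerase III was 34.4 ± 6.23% in cultured and 32.0 ± 2.49% in fresh libraries. These differences in share were within the spread between libraries, and no test was made of sums over chosen genes.

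**Figure D4:**
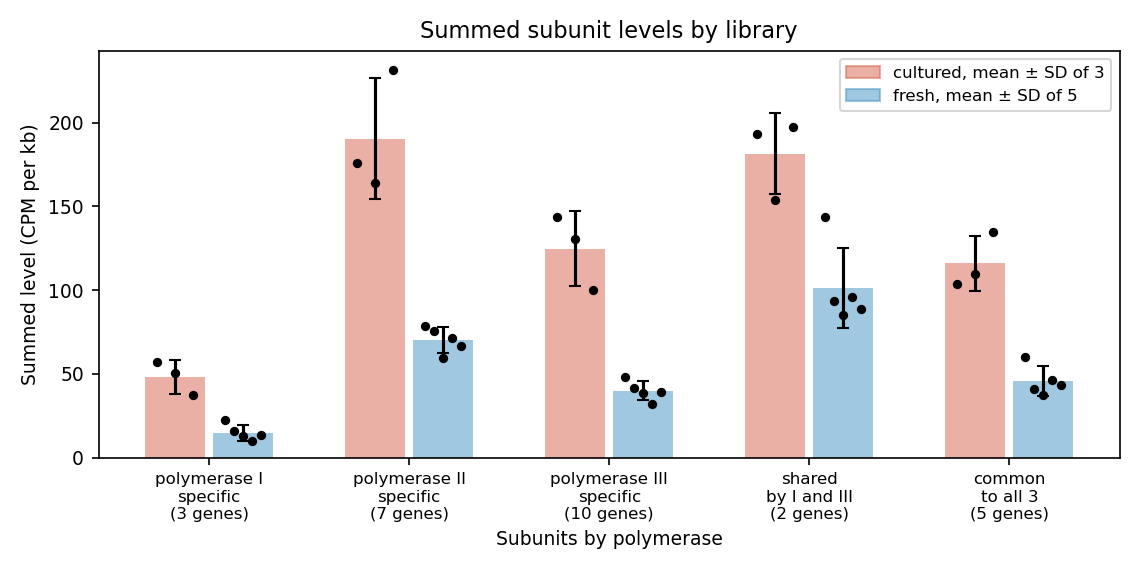
Summed CPM per kb of Polr subunit genes by polymerase, with bars for the mean, error bars for the SD and 1 point per library, cultured on the left of each pair. Polr2m and the subunits under other symbols are left out. For polymerase I the cultured mean is 48.3 and the fresh mean 14.9 CPM per kb, and the ranges are also separate for the other sets.

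Levels per kilobase differed widely among the genes. In cultured cells the highest means were Polr2m at 129, Polr1d at 125, Polr2a at 65.7 and Polr2h at 61.0 CPM per kb, and the lowest were Polr2l at 2.70 and Polr3gl at 0.0238 CPM per kb. In fresh cells the highest were Polr1d at 64.5, Polr1c at 36.9, Polr2m at 33.4 and Polr2a at 16.9 CPM per kb, and the lowest were Polr3g at 2.18 and Polr3k at 1.72 CPM per kb. Polr3g was 11th of 28 in cultured cells and 27th in fresh cells. Polr2m and Polr1d overlapped in their cultured libraries, and Polr3g and Polr3k in their fresh libraries.

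Calls were also counted by transcript length and by level. In transcripts of 2 kb or more, 11 of 15 genes rose, and in shorter ones 2 of 13 rose and 1 fell. Of all tested genes, 9.24% rose and 20.4% fell in the longer class, and 8.85% rose and 13.5% fell in the shorter. Genes averaging 20 CPM or more rose in 12 of 15 cases, while below that level 1 of 13 rose and 1 fell. Of all tested genes, 19.5% rose and 18.2% fell at 20 CPM or more, and 3.38% rose and 17.9% fell below it. Both divisions were chosen after the values were seen. The median standard error was 0.48 on the log2 scale for called genes and 0.68 for the others. Across the 28 genes, which share the same libraries, Spearman's rho with the log2 fold change was 0.41 for transcript length, 0.37 for mean level and -0.47 for GC percent, and it was -0.89 between mean level and standard error. With GC and length trends removed, 12 genes were still called higher. Exons of 10 members overlap an exon of a gene on the opposite strand, by 1.56 to 26.8% of their bases, and no source used here says whether counting used strand.

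**Figure D5:**
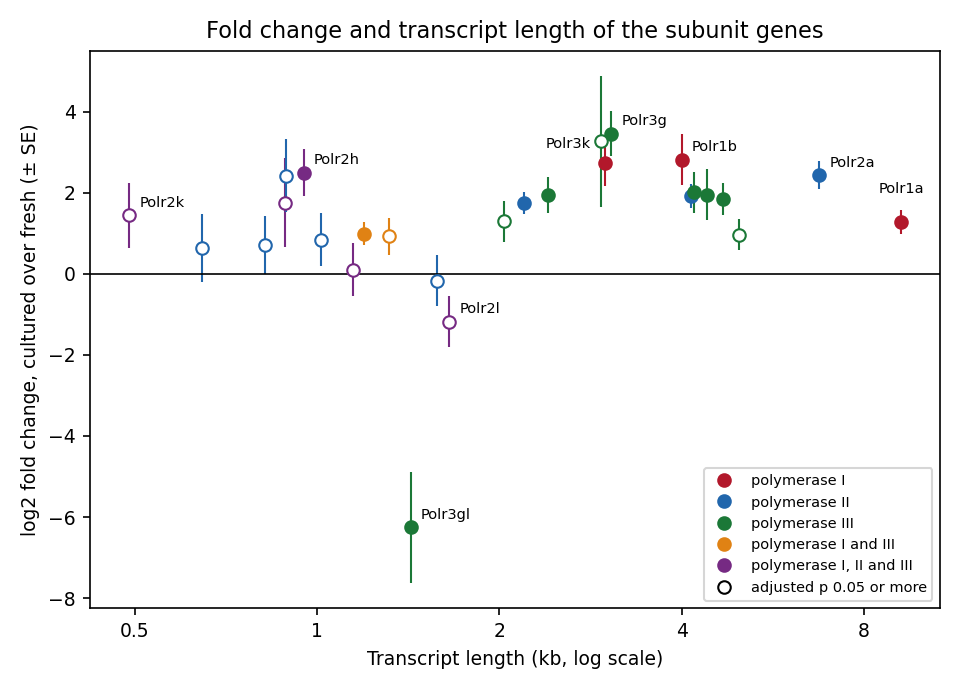
Log2 fold change, cultured over fresh, with standard error against transcript length on a log axis for 27 of the 28 tested subunit genes, filled where the adjusted p was under 0.05. Of the transcripts of 2 kb or more, 11 are filled, and those plotted all lie above 0.

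Between the sequencing runs of fresh cells no subunit gene passed the edgeR test, against 0.189% of all genes. At an unadjusted p under 0.05 in that test there was 1 of 28, Polr2a, against 2959 of all 19054 genes. DESeq2 was not run for this contrast. The median log2 difference of run 2 over run 1 was -0.47 over the subunit genes and -0.14 over all genes. Of the 28, 19 lay below 0, and no such count was made over all genes. Fresh replicate 1 was the highest fresh library for 16 of the 28 genes, a count also not made over all genes. Among fresh libraries it had the highest muscle stem cell marker sum, at 6033 CPM, and the lowest sums for pericyte (1299 CPM), Schwann cell (480 CPM), fibroblast (1070 CPM), endothelial (94.5 CPM) and blood cell (27.1 CPM) markers. The part of these cells in its subunit levels was not tested.

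Some polymerase subunits stand under other symbols. Of the 3 for polymerase I, Cd3eap rose, at 32.8 ± 7.93 CPM in cultured and 7.06 ± 2.94 CPM in fresh cells (log2 fold change 2.38 ± 0.65, adjusted p = 0.0265), and Twistnb and Znrd1 did not pass. Crcp, for a polymerase III stalk subunit, rose as well, at 43.0 ± 25.7 CPM in cultured and 11.6 ± 2.63 CPM in fresh cells (2.06 ± 0.61, adjusted p = 0.0357). The counts of the following lists stand beside 8.87% of all genes called higher and 18.0% called lower. Of 7 polymerase I initiation and termination factors, 4 rose and 3 did not pass. Those that rose include Rrn3, which makes polymerase I competent to initiate, at 97.4 ± 19.6 CPM in cultured and 34.6 ± 11.8 CPM in fresh cells (1.91 ± 0.37, adjusted p = 0.00676). Ubtf, which binds ribosomal DNA, was at 115 ± 18.1 CPM in cultured and 54.5 ± 18.5 CPM in fresh cells (1.47 ± 0.37, adjusted p = 0.0189). Of 17 polymerase III factors 2 rose, a share near that of all genes. They were Ssb, which binds the ends of new polymerase III transcripts (1.66 ± 0.35, adjusted p = 0.00941), and Bdp1, a part of the initiation factor TFIIIB (0.83 ± 0.24, adjusted p = 0.0313). Of 31 general initiation factors of polymerase II, 6 rose and 1, Taf1, fell (-0.98 ± 0.23, adjusted p = 0.0145). Of 29 pausing and elongation factors, 6 rose and 1, Aff4, fell (-1.005 ± 0.310, adjusted p = 0.0422). Those that rose include Supt16, part of the histone chaperone FACT, at 367 ± 48.2 CPM in cultured and 104 ± 12.9 CPM in fresh cells (1.80 ± 0.25, adjusted p = 0.00165), and Leo1 of the PAF1 complex (2.62 ± 0.46, adjusted p = 0.00453). Of 15 genes for polymerase assembly and phosphatases of the C-terminal domain, 3 fell, namely Ctdsp2, Ctdspl and Rprd1a, and 12 did not pass, so that the share called lower was near that of all genes. Ctdsp2, such a phosphatase, was at 103 ± 42.4 CPM in cultured and 601 ± 128 CPM in fresh cells (-2.17 ± 0.31, adjusted p = 0.00179). The 4 genes of the mitochondrial RNA polymerase list did not pass. Neither did the 5 tested transcripts, all of polymerase III, and no transcript of polymerase I was tested. Of the 5, Rn7sk was lower in every cultured than in every fresh library, at 28.5 ± 8.18 against 108 ± 57.4 CPM (-1.39 ± 0.46, adjusted p = 0.0551). The others overlapped, with fresh means of 0.417 to 5.23 CPM. The calls of Supt16, Leo1 and Ctdsp2 held in all 21 alternatives. Those of Rrn3, Ssb and Ubtf were lost in 1, 2 and 4, those of Cd3eap (3.27 without fresh replicate 4) and Taf1 in 5 each, those of Bdp1 and Ctdspl (log2 fold change -3.47 without cultured replicate 2) in 8 each, that of Rprd1a (-1.86 without fresh replicate 4) in 3, that of Crcp in 9 and that of Aff4 in 13.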

How the data were processed

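Expected counts per gene were deposited by the authors in 1 table with a column per library. The tools named are STAR and RSEM and the genome build is mm10, per the submitters' processing notes, without versions or an annotation. Per the labels' protocols, RNA was isolated with a Qiagen micro kit and amplified with NuGEN Ovation, with no molecular identifiers mentioned, so counting intervals and floors take in no other error. Of the values above 0, 50.1% were not whole, and all were rounded. The 92 ERCC lines, which held 40.86 counts over all libraries, were left out.

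Genes were kept by filterByExpr with the culture groups, which left 19054 and removed 0.0984 to 0.665% of counts per library. This filter was taken to match earlier processing of these data, after the same filter with the design matrix had been run. That other filter is given as an alternative chosen after seeing the data. TMM scaling and the quasi-likelihood test of edgeR 4.0.16 in R 4.3.3 followed, with run and culture as terms, 5 residual degrees of freedom and Benjamini-Hochberg adjustment over all tested genes at 0.05. Standard errors are the fold change over the square root of the test statistic. Alternatives were DESeq2 1.42.0, other scalings, filters and run sets, removal of GC and length trends, a replicate block, leaving out each library, and a threshold on the log2 fold change of 1.

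The fit was tested on simulated data. Estimates were centred on the simulated folds and few false calls were made, but log2 folds of 1 and 2 were mostly not called, and the simulation was widened to larger folds after the first, smaller ones gave no calls. Far fewer genes were changed in the simulation than were called in the data, where some smaller folds passed, so its share of calls does not carry over.

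Levels per kilobase use the longest principal transcript of GENCODE M21, an annotation of mm10 that matched 98.8% of identifiers, and gene coordinates are from it. Copies were searched with BLAST 2.17.0. Full values are given for the largest and second largest subunits, Polr3g and Polr3gl, and up to 6 called members per symbol class and direction. Of pathway lists, called genes with a mean of at least 10 CPM were eligible, up to 3 per direction, and some of these are named. Members, lists and this rule were chosen with earlier results of these data known. Values of 1 member, which enters the counts and sums, are not reported here.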

Additional observations from a re-analysis of the deposited data

Results flagged for a closer look

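Polr1c stood at 84.5 CPM in fresh replicate 1, far from the other fresh libraries at 35.3 to 44.5 CPM. Polr1d stood at 94.7 CPM in the same library, with the other fresh libraries at 69.8 to 76.3 CPM. Both genes code subunits shared by polymerases I and III. The gap to the nearest fresh library, divided by the range of the fresh libraries, was 0.812 for Polr1c and 0.739 for Polr1d. Both exceeded the 95% critical value of Dixon's test for 5 samples (0.71). In all, 29 sets of fresh values were checked, of which 2 met this rule, and chance flags about 1 in 20.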

How the results depend on the processing

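Over 21 alternatives, Polr2a, Polr2b, Polr2m and Polr3g kept their calls, and the direction of the 14 called subunit genes did not turn in any of them. Subunit genes called higher numbered 8 with a replicate block, 8 against a log2 fold change of 1, and 4 to 15 with a library left out, lowest without fresh replicate 4. Those called lower numbered 0 with run 2 alone and 2 with DESeq2. Over all genes, 2780 (1013 higher, 1767 lower) were called with run 2 alone and 2731 (1347 higher, 1384 lower) with the replicate block. Against a log2 fold change of 1, 909 were higher. With a library left out the calls numbered 3337 to 6163, of which 896 to 2198 were higher, and the run effect 1 to 36. The low count filter on the design matrix, chosen after seeing the data, tested 22108 genes and called the same 13 subunit genes higher and Polr3gl lower. Without scaling factors the median of all genes moved to 0.03 and the calls to 2452 higher and 2857 lower, with 16 subunit genes higher. The Polr3g to Polr3gl log2 ratio difference was 9.60 (exact p = 0.2) with run 2 alone and 9.29 to 10.96 with a library left out, where exact p cannot go below 0.0571 or 0.0952. Polr2c and Polr2e, which did not pass, changed sign. The log2 fold change of Polr2c was 0.60 with the replicate block, 0.78 with run-1 libraries as the sole fresh group, 0.29 without the run term, 0.29 without scaling, and -0.61 to 0.29 with a library left out. That of Polr2e was -0.061 with GC and length trends removed and -0.21 to 0.58 with a library left out. The causes were not tested. Deviations of same-numbered libraries correlated at 0.030, 0.010 and 0.011, so the numbers were not taken to pair them, although each library correlated best with its own number. Standard errors were larger at lower levels, with a median of 0.45 for subunit genes at 20 CPM or more and 0.81 below it.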
